A study of Caenorhabditis elegans with 4 samples.

Results

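Chromosome V of Caenorhabditis elegans carried 508 of the 3380 SMC-6 peaks that the series-wide list holds on the 6 nuclear chromosomes. They were chosen by position alone, as every listed peak on V. The peaks on V in the lists of the 2 separate ChIP libraries are given beside them, 405 of 2065 in replicate 1 and 238 of 1427 in replicate 2. All libraries came from wild-type embryos of the N2 strain, of mixed stages and both sexes, grown at 20 degrees Celsius. The material of every library was fixed with 2% formaldehyde for 30 min. There were 2 ChIP libraries, made with an affinity-purified rabbit polyclonal serum against SMC-6, and 2 input libraries, for which no peak list or signal was analysed here. No library without SMC-6 or with an unspecific antibody was analysed here. Nothing in the labels says whether the replicates were separate cultures, and the spread between them may be technical.

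SMC-6 is a core subunit of the SMC-5/6 complex, one of the ring-shaped ATPase complexes of the SMC family, beside cohesin and condensin. The complex is known for its part in DNA repair by homologous recombination and in the handling of joined or tangled DNA during replication and meiosis. Chromosome V is the longest C. elegans chromosome. On the autosomes of this species genes are packed most densely in the centre, whereas the arms recombine more and hold more repeats.

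In ChIP-seq a peak is a stretch of the genome where DNA recovered with the antibody is enriched, as called by software. Each list gives the borders of a peak and the authors' own score, for which no scale is stated. Scores are therefore used only to rank peaks within a list. Each share carries an exact 95% interval (Clopper-Pearson), which speaks of counting error alone and takes peaks to be independent. Read numbers and depth are unknown from these lists. With 2 libraries and no second condition there was no test over samples, so all comparisons below are descriptions. Where a list has no peak, nothing was called, which does not show that the site was unbound.

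V had the fewest SMC-6 peaks per Mb of any nuclear chromosome in the series-wide list, with 24.3 on V against 36.2 on the other 5 together, a ratio of 0.671. Density on those chromosomes lay between 32.3 on IV and 40.4 on I, so V stood below all of them. V took 15.0% of the peaks (13.8 to 16.3%) with 20.9% of the summed chromosome length.

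The replicate lists gave this less evenly. Replicate 1 had 19.4 peaks per Mb on V and 20.9 on the other 5 together, a ratio of 0.925, and V was above III and X in that list. Replicate 2 had 11.4 on V and 15.0 on the others, a ratio of 0.759, and V was again lowest, next to IV at 11.9. The 2 replicate ratios averaged 0.842 ± 0.117 (SD, n = 2). V held 19.6% of the peaks in replicate 1 (17.9 to 21.4%), and 16.7% in replicate 2 (14.8 to 18.7%).

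Covered bases gave a smaller difference. Series-wide peaks covered 1.02% of V and 1.36% of the other chromosomes. In replicate 1 the covered share was higher on V, at 1.00% against 0.960% elsewhere. In replicate 2 it was 0.788% on V against 0.886%. The ratio of V to the others in covered bases was 1.05 in replicate 1 and 0.889 in replicate 2. Without the 1 wide region of the right part described further on, it was 0.979 in replicate 1 and 0.816 in replicate 2. Only V lost a region in this comparison, and the other chromosomes kept their largest blocks, so the ratio could only fall.

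**Figure D1:**
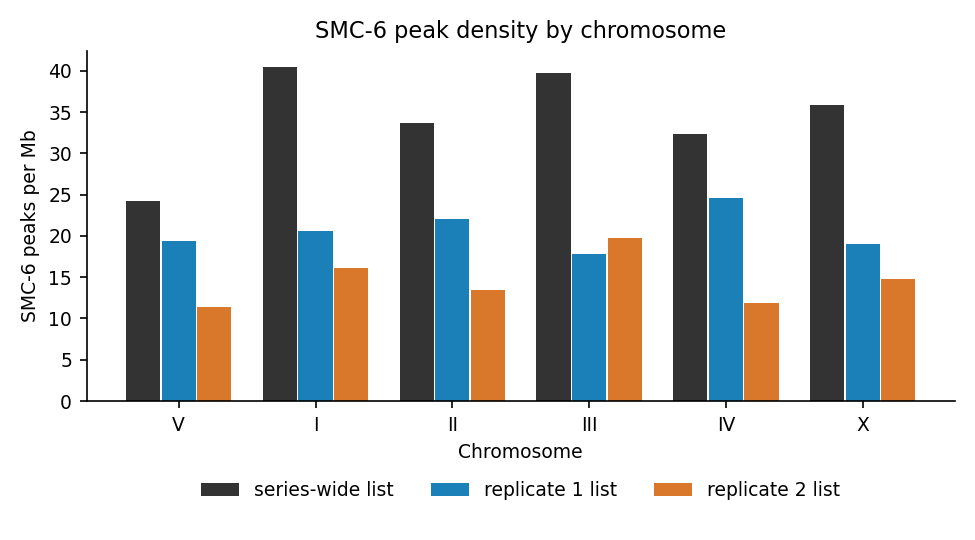
SMC-6 peaks per Mb on each nuclear chromosome, with V at the left and 1 bar for each peak list; there is 1 value per bar and no error bar. V is lowest in the series-wide list (24.3) and in replicate 2 (11.4), and lies within the range of the other chromosomes in replicate 1 (19.4).

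The low density of V was carried by peaks that at least 1 library did not call. Series-wide peaks overlapped by both replicate lists, by at least 1 bp, were as dense on V as elsewhere, at 5.64 against 5.70 per Mb, a ratio of 0.990. Those overlapped by replicate 1 alone had 6.59 peaks per Mb on V and 8.19 elsewhere (ratio 0.805). For replicate 2 alone the densities were 5.11 and 8.80 (ratio 0.581). The widest difference was in peaks that neither replicate list held, with 6.93 per Mb on V and 13.5 on the others (ratio 0.513), where the lowest other chromosome was IV at 9.95.

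Split by score instead, into 5 groups of about equal size over all nuclear peaks, V had the lowest density of the 6 chromosomes in every group. The ratios of V to the others were 0.682, 0.503, 0.737, 0.719 and 0.721 from the lowest-scoring group to the highest. The shortfall was therefore present in strong and weak peaks of the series-wide list alike, while it was nearly absent among the peaks both libraries called.

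**Figure D2:**
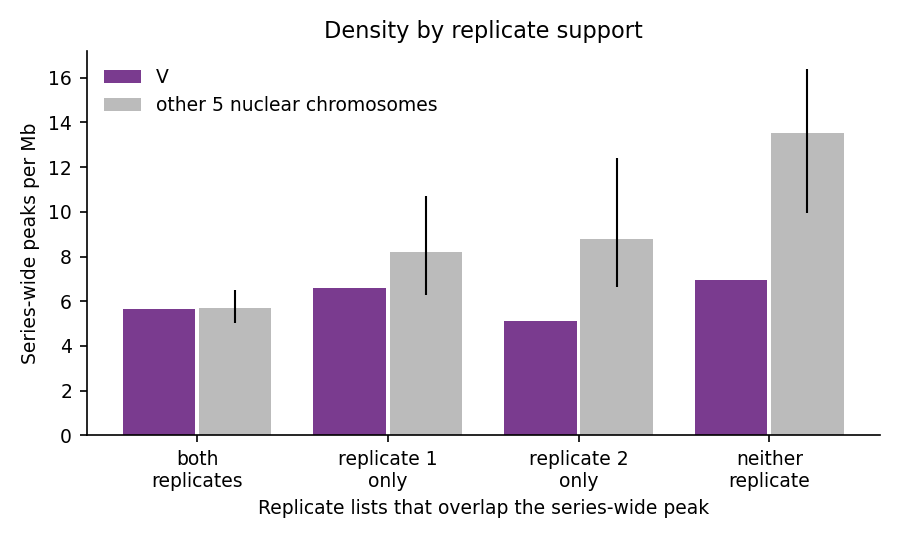
Series-wide peaks per Mb on V and on the other 5 nuclear chromosomes together, by the replicate lists that overlap them; lines mark the lowest and the highest of the other 5. V matches the others for peaks in both replicates (5.64 and 5.70) and lies below all 5 for peaks in replicate 2 alone and in neither.

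Of the V peaks in the series-wide list, 118 (23.2%, 19.6 to 27.1%) were overlapped by both replicate lists. Over all nuclear peaks this share was 16.9%, and over the other 5 chromosomes it was 15.7% (14.4 to 17.1%), with single chromosomes between 15.5% on II and 16.1% on I. A further 138 V peaks met replicate 1 alone and 107 met replicate 2 alone. The remaining 145 (28.5%, 24.7 to 32.7%) met neither list, where the share over all nuclear peaks was 36.0%.

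The classes differed in size and strength on V. Peaks in both lists had a median width of 505 bp and a median score of 21.6, and peaks in neither had 190 bp and 4.75. A wider peak meets a 1 bp overlap more easily, so these widths follow in part from the rule. Peaks seen in replicate 2 alone had a higher median score (12.3) than those seen in replicate 1 alone (5.84). The other 5 chromosomes together had the same order, so it was not particular to V. There the medians were 479.5 bp and 18.0 for both and 197 bp and 4.83 for neither. Median scores there were 13.5 for replicate 2 alone and 5.475 for replicate 1 alone.

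Between the libraries themselves, 117 of the 405 replicate 1 peaks on V were overlapped by a replicate 2 peak. That is 28.9% (24.5 to 33.6%), close to the 28.5% over all nuclear peaks of replicate 1. From the other side, 110 of the 238 replicate 2 peaks on V were overlapped by replicate 1, or 46.2% (39.8 to 52.8%). The same share was 38.8% over all nuclear chromosomes and 37.3% (34.6 to 40.2%) over the other 5, so replicate 2 peaks on V had a partner more often. The series-wide list took up 62.7% of the replicate 1 peaks on V and 91.2% of those of replicate 2, near the 65.0% and 92.9% over all nuclear chromosomes.

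Along V, which was cut into 3 parts of equal length (6.97 Mb each, assigned by peak midpoint), the centre held the most series-wide peaks. The left part had 149 peaks (21.4 per Mb), the right part 162 (23.2 per Mb) and the centre 197 (28.2 per Mb). The densities of the left and right parts were 0.756 and 0.822 of the centre. In covered bases the left part had 58.2 kb, the right part 71.3 kb and the centre 83.3 kb.

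The libraries differed on this point. Replicate 2 had 68 peaks in the left part, 72 in the right and 98 in the centre, so the ratios to the centre were 0.694 and 0.735. Replicate 1 had 131 in the left part, 143 in the right and 131 in the centre, which gave 1.00 and 1.09. Replicate 1 alone thus showed no excess of peaks in the centre. Counted in peaks, the mean density of both ends over that of the centre was nevertheless lowest on V in every list, narrowly so in the replicates. It was 0.789 on V in the series-wide list, with 0.884 to 1.23 on the others. In replicate 1 it was 1.046 on V, where III followed closely at 1.051 and II was highest at 2.02. In replicate 2 it was 0.714 on V, next to II at 0.720, with I highest at 1.04. Covered bases gave another order. In replicate 1 the left and right parts over the centre were 0.809 and 0.989 on V, against 0.793 and 0.628 on III. In replicate 2 they were 0.744 and 0.790 on V, against 0.674 and 0.499 on IV. In the series-wide list the left ratio was lowest on V (0.698), but the right ratio (0.855) was above those of III (0.739) and IV (0.773).

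Replicate 1 peaks had a partner more often in the centre. In replicate 1, 22.9% of the peaks in the left part (16.0 to 31.1%) and 22.4% in the right part (15.8 to 30.1%) had a partner in replicate 2, against 42.0% in the centre (33.4 to 50.9%). The centre also had the highest share on each of the other 5 chromosomes in replicate 1, from 35.8% on IV to 43.1% on I, so this was not a feature of V alone. In replicate 2 the partner shares were 41.2% on the left, 43.1% on the right and 52.0% in the centre, with overlapping intervals. Replicate 1 peaks in the centre were also wider, with a median of 405 bp, than those on the left (285 bp) and on the right (296 bp). The other lists did not show this, with medians of 280, 269.5 and 281 bp on the left, on the right and in the centre in the series-wide list, and of 476.5, 400.5 and 480.5 bp in replicate 2.

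Within the centre, series-wide peaks were densest in a stretch of 2 Mb. The windows from 8 to 9 Mb and from 9 to 10 Mb held 48 and 37 series-wide peaks, the 2 highest counts among the 20 full 1 Mb windows of V, whose median was 22.5. The next was 36 peaks, from 14 to 15 Mb. The lowest were 16 peaks from 7 to 8 Mb, and 17 each from 0 to 1 Mb and from 4 to 5 Mb. Of the V windows, 17 lay under the median of 35 peaks in the 77 full windows of the other chromosomes. In replicate 1, 10 lay under their median of 20, and in replicate 2, 15 lay under their median of 14.

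The window from 8 to 9 Mb was also the fullest of V in replicate 1, with 43 peaks. None of the 77 windows on the other chromosomes reached that count in replicate 1, the highest of them having 41. In replicate 2 the fullest was the window from 9 to 10 Mb, with 28 peaks, and the window before it had 21. On the other chromosomes 2 windows had as many as 28 or more in replicate 2, up to 33. In the series-wide list 6 of their windows had 48 peaks or more, up to 59. The libraries thus put their highest count in neighbouring windows. Across the 20 windows the counts of replicate 1 and replicate 2 had a Spearman's rho of 0.36, which is a description, since windows share a chromosome and the libraries share the protocol.

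With 9.56% of the length of V, the stretch from 8 to 10 Mb held 85 series-wide peaks (16.7% of those on V). Replicate 1 had 65 peaks there (16.0%) and replicate 2 had 49 (20.6%). Both replicates overlapped 28 of the 85 series-wide peaks (32.9%, 23.1 to 44.0%), against 90 of 423 on the rest of V (21.3%, 17.5 to 25.5%). Of the 32 series-wide peaks on V that were 1 kb wide or more, 14 lay in this stretch and 18 on the rest. The stretch was picked out after its counts were seen, and the fullest windows of the left and right parts were kept. Leaving it out could therefore only lower the centre, so where the excess lies was not tested. Without the stretch the centre had 22.5 peaks per Mb, and the left and right parts stood at 0.949 and 1.03 of that. In replicate 1 those ratios without it were 1.42 and 1.55, and in replicate 2 they were 0.990 and 1.05.

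**Figure D3:**
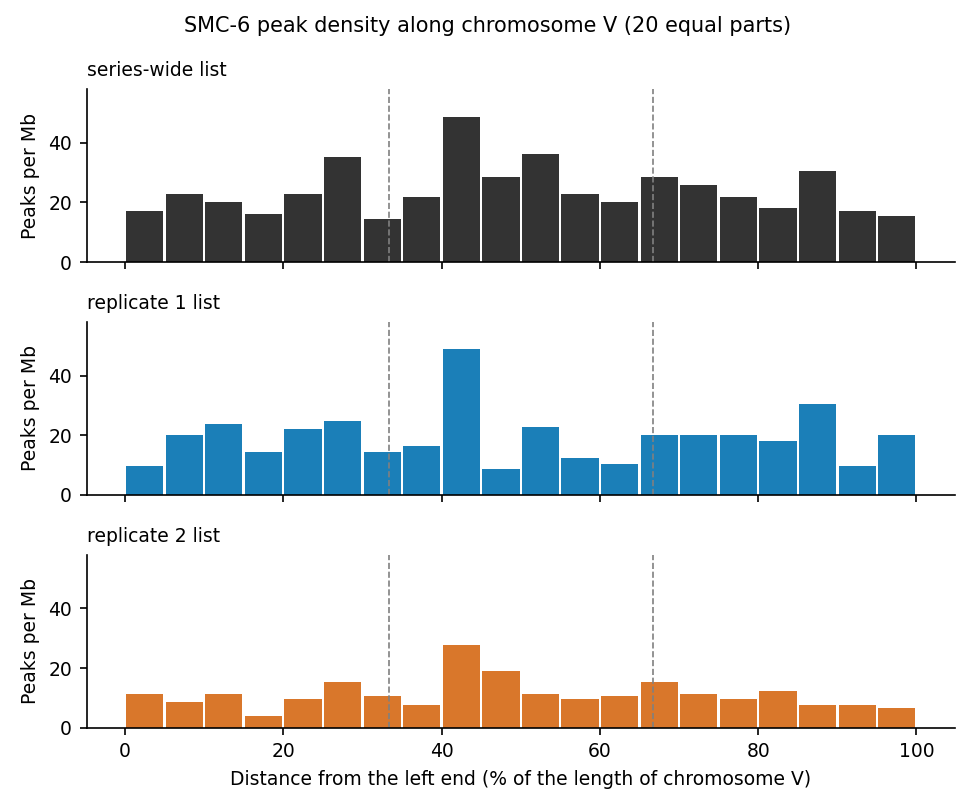
SMC-6 peaks per Mb in 20 parts of equal length along chromosome V, from its left end, in the 3 lists; dashed lines separate the left part, the centre and the right part. The part between 40% and 45% of the length is the highest in every list, at 48.7 peaks per Mb in the series-wide list, against 48.7 for replicate 1 and 27.7 for replicate 2.

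Peaks on V were slightly wider than those of the other 5 chromosomes together, by less than the lists differed from each other. The median width was 277.5 bp on V and 264 bp on the other 5 chromosomes in the series-wide list. It was 314 bp against 292.5 bp in replicate 1, and 458 bp against 445 bp in replicate 2. Taken singly, II was as wide as V in replicate 1, at 315 bp. The middle 80% of the series-wide widths on V ran from 162 to 716 bp, and elsewhere from 161 to 600 bp, so the difference lay mainly among wide peaks.

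Scores showed the same small offset. The median was 7.33 on V and 6.80 elsewhere in the series-wide list, 100.4 against 92.6 in replicate 1 and 155.4 against 153.6 in replicate 2. Taken singly, II was above V in replicate 1 (101.7), and II (181.2) and I (158.8) were above it in replicate 2. In the series-wide list 55.1% of the V peaks (50.7 to 59.5%) lay above the median of the others. The shares were 54.8% (49.8 to 59.7%) in replicate 1 and 50.4% (43.9 to 56.9%) in replicate 2. Of the 100 highest scores in each list, V held 20 (series-wide), 23 (replicate 1) and 21 (replicate 2), near its share of the genome's length.

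Wider peaks were in both replicates more often. Both met 3 of 138 series-wide V peaks under 200 bp, 55 of 276 from 200 to under 500 bp and 31 of 62 from 500 bp to under 1 kb. Above that they met 19 of 20 peaks from 1 to under 2 kb and 10 of 12 peaks of 2 kb or more. Score and width were correlated over the V peaks, with Spearman's rho of 0.61 over the series-wide list (n = 508), 0.69 in replicate 1 (n = 405) and 0.78 in replicate 2 (n = 238). Peaks of a list share 1 library or set of libraries, so these are descriptions.

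The series-wide score followed replicate 2 more closely than replicate 1. Over V peaks with a partner, rho with the partner's score was 0.76 for replicate 2 (n = 225) and 0.38 for replicate 1 (n = 256). Over the 108 sites present in all 3 lists, rho between the replicate scores was 0.39. The sources used here do not say how the series-wide list was derived from the libraries.

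**Figure D4:**
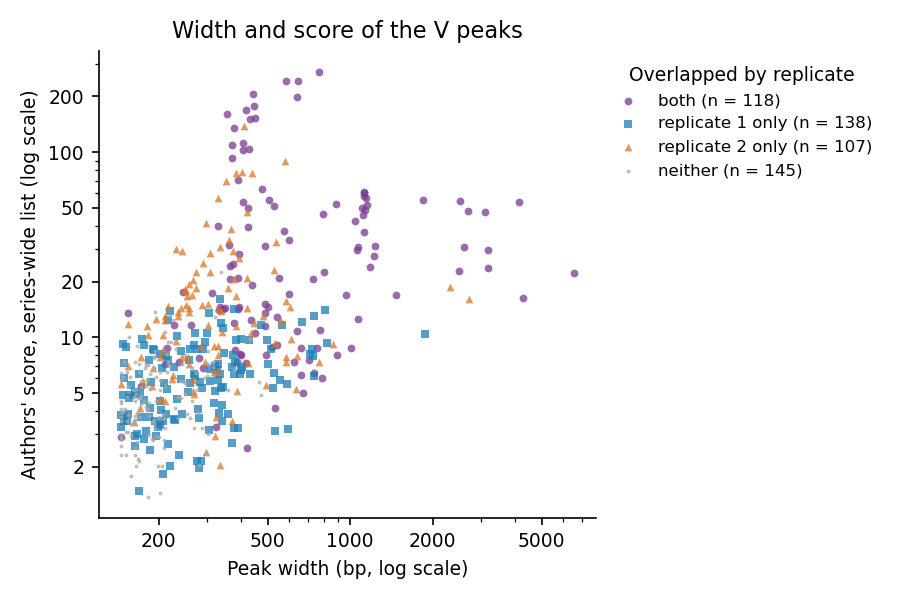
Authors' score against width, both on log scales, for the 508 series-wide peaks on V, by the replicate lists that overlap them. The 10 highest scores, from 150.6 to 270.8, belong to peaks of 355 to 770 bp, while peaks of 2 kb or more score between 16.1 and 54.6.

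By series-wide score the highest sites on V were narrow. The 10 highest-scoring series-wide peaks were 355 to 770 bp wide, and 4 lay in the left part, 1 in the right part and 5 in the centre. All were overlapped by both replicates, as were 16.9% of all nuclear peaks of any score. The first, V:14038232-14039001 in the right part, had a score of 270.8 and ranked 2 among all nuclear peaks. It was called at 14038367 to 14039041 in replicate 1 (score 1267) and at 14038224 to 14039128 in replicate 2 (score 3100, the value at which the replicate lists tie).

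The next 2 were neighbours in the left part, V:5777999-5778580 (score 242.4) and V:5776850-5777493 (score 241.8), 505 bp apart. Both libraries kept them as separate peaks, with scores of 676 and 593 in replicate 1 and 3100 for each in replicate 2. In the centre the highest was V:10807823-10808264, with a score of 206.3. It had scores of 921 in replicate 1 and 2355 in replicate 2. The others were V:11610396-11611032 (198.5), V:11113105-11113551 (178.0), V:11239135-11239550 (167.9), V:4731406-4731760 (160.5), V:6709000-6709447 (153.7) and V:9582878-9583309 (150.6).

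These sites stood high in replicate 2, where they ranked 3 (shared by peaks tied at 3100) to 98 of 1427, with a median score of 1952. In replicate 1 they ranked 75 to 1007 of 2065, with a median score of 603. The site at V:4731406 was the lowest there, with a score of 96.7 and a width of 178 bp.

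Peaks of 2 kb or more formed another group, set apart by width. V had 12 of them, 2.36% of its peaks, where 1.54% of all nuclear peaks were as wide. In the series-wide list X had 13 among 635 peaks and I had 11 among 609. In replicate 1, V had 9 among 405 and I had 7 among 311. The 12 series-wide peaks on V made up 18.7% of its covered bases. Both replicates overlapped 10 of the 12, and 16.9% of all nuclear peaks of any width. Their series-wide scores, 16.1 to 54.6, lay above the V median of 7.33 and below those of the 10 highest peaks. Their ranks among the 508 V peaks ran from 32 to 106. In replicate 1 all 6 V peaks with a score of 3100 or more were 2 kb or wider, whereas in replicate 2, 4 of 7 were.

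The widest was V:3434551-3441097 in the left part, 6547 bp with a series-wide score of 22.2. Each library called it as 1 peak of nearly the same borders, 6555 bp with a score of 3100 in replicate 1 and 6598 bp with a score of 355.8 in replicate 2. The libraries thus placed the same site very differently in their rankings, at 3 in replicate 1, a rank shared by all peaks tied at 3100, and 384 in replicate 2. V:8699722-8702911 (3190 bp) was similar, with scores of 3100 in replicate 1 and 107.3 in replicate 2, as was V:7988874-7991468 (2595 bp), with 3100 and 410.2.

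A pair of other wide sites was high in both libraries. V:5283183-5285875 (2693 bp) had 3100 in replicate 1 and 3199.6 in replicate 2, where it ranked 1. V:17308514-17311618 (3105 bp), in the right part, had 3100 in each, with borders that differed by at most 50 bp among the 3 lists.

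In the centre, V:10605639-10609895 (4257 bp) and V:10609992-10612478 (2487 bp) lay 96 bp apart. Replicate 1 gave the first a score of 771 and replicate 2 gave it 2936. V:9340247-9343428 (3182 bp) reached 2 kb in the series-wide list alone. Replicate 1 had 3 peaks in it, of which the one with the longest overlap was 294 bp wide. Replicate 2 had 4, of which the one with the longest overlap was 1601 bp wide, with a score of 976.5. Replicate 1 had no peak at V:4333244-4335948 or at V:16707142-16709446, where replicate 2 had 2 peaks each.

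The widest region of the right part was V:17117736-17132386, a span of 14.7 kb in which all 3 lists called peaks, in different pieces. Replicate 1 had 3 peaks in it, at 17117800 to 17118959 (score 2072), 17119941 to 17120471 (score 303.5) and 17120473 to 17132386. The last was 11914 bp long, the widest V peak of any list, with a score of 3100. Replicate 2 also had 3, at 17117736 to 17118970 (score 1660), 17119937 to 17127826 and 17127879 to 17132377. Of these the second was 7890 bp wide and the last 4499 bp, and both scored 3100.

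The series-wide list divided the same span into 7 peaks, from 422 to 4127 bp, with scores between 49.96 and 55.2. Of the span, 92.9% was covered by peaks of replicate 1, 93.0% by those of replicate 2 and 78.4% by series-wide peaks, which left a further gap from 17126636 to 17128114. Bases called in both replicate lists made up 13544 bp, or 92.4% of it. All lists left a gap of about 1 kb near the left edge, between the first peak and the next.

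**Figure D5:**
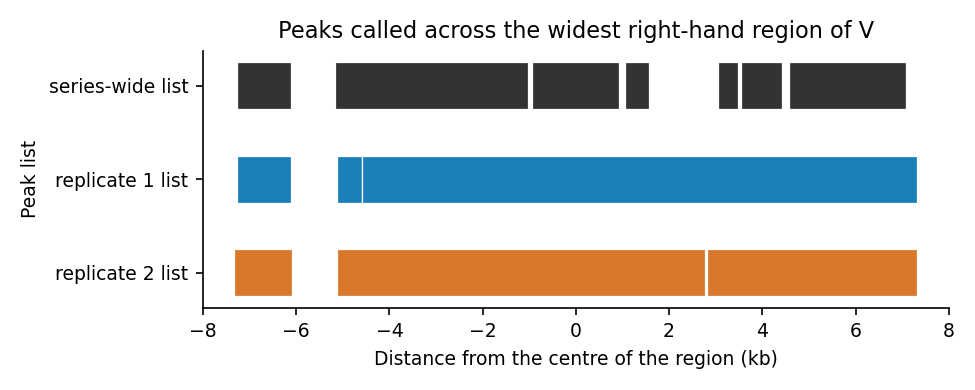
Peaks called in the 3 lists across the widest region in the right part of V, by distance from its centre in kb; each bar is 1 peak. Every list has a first peak apart from the rest, after which replicate 1 has 1 peak of 531 bp and 1 of 11914 bp, replicate 2 has 2 and the series-wide list has 6.

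The region held 11492 of the 212848 bases covered on V in the series-wide list, 13605 of 210247 (6.47%) for replicate 1 and 13624 of 164947 (8.26%) in replicate 2. Within the right part its share was 16.1%, 18.3% and 26.5% in the same lists. Covered bases of the right part over those of the centre were 0.855 with the region and 0.717 without it in the series-wide list. In replicate 1 the values were 0.989 and 0.808, and in replicate 2 they were 0.790 and 0.581. Among all nuclear chromosomes, peaks joined across gaps of at most 1 kb formed no block with more covered bases than this one in either replicate list. It had 13605 bp in replicate 1 and 13624 bp in replicate 2, and the next was on I, with 11128 and 11126 bp. In the series-wide list the block on V was smaller, at 7654 bp, and X, I, IV and II each had a larger one.

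The right arm of V is known to carry the tandem array of 5S ribosomal RNA genes, each repeat of which also holds a gene for SL1, the leader RNA that is spliced onto many C. elegans messages. A RefSeq gene table of assembly WBcel235 lists 15 rrn-4 (5S) and 12 sls-1 (SL1) genes on V, and 25 of these 27 follow each other without another gene between them. That table is of another build than the peaks, so the region was not placed against the array. The input signal was not analysed here, so the region was not compared with input.

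A repeated pattern lay in the dense stretch of the centre, and was singled out after its values were seen. Between 8847271 and 8898576, 7 series-wide peaks of nearly equal width, 1100 to 1139 bp, stood in a group of 3 and a group of 4. Their midpoints were 2464 and 3150 bp apart in the first group, and 2456, 3164 and 2460 bp apart in the second, so the spacing of the first group recurred in the second. Both libraries called all 7, at widths of 1217 to 1312 bp in replicate 1 and 1177 to 1357 bp in replicate 2. Scores ranged from 45.9 to 61.3 in the series-wide list, from 2143 to 2979 in replicate 1 and from 974 to 1462 in replicate 2.

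Pairs of like width in the series-wide list occurred elsewhere on V. V:8532624-8533745 and V:8534470-8535513 had midpoints 1807 bp apart, V:9087298-9088514 and V:9089261-9090490 had 1970 bp, and V:16040105-16041160 and V:16041779-16042960 had 1737 bp. Both libraries called each of these 6 peaks, but not always at like widths. In replicate 1 the widths were 707 and 1119 bp at the first pair, 614 and 372 bp at the second, and 1103 and 1246 bp at the last. Over the whole of V 20 series-wide peaks were from 1 to under 2 kb wide, with a median score of 39.9, and 19 of them were in both replicates. On the other 5 chromosomes 80 peaks had that width, with a median score of 16.7, and 37 (46.2%) were in both. The 7 peaks of the repeated pattern and these 6 are among the 20, so the values for V are not separate from them. Of the V peaks of this width in the replicate lists, 61.3% in replicate 1 and 79.3% in replicate 2 had a partner in the other replicate. Without an annotation of the build used here no gene was assigned to any of these sites.

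Spacing on V was uneven. The median gap between neighbouring series-wide peaks was 19.6 kb on V against 14.8 kb on the other chromosomes. In replicate 1 it was 23.8 kb against 22.7 kb, and in replicate 2 it was 49.0 kb against 38.5 kb. A neighbour within 10 kb was present for 61.8% of the series-wide peaks on V, against 64.3% elsewhere, for 60.2% against 60.1% in replicate 1, and for 52.5% against 42.5% in replicate 2. In replicate 2 the highest share on another chromosome was 48.9%, on III, and this order changed once close peaks were joined.

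Many neighbours lay very close together. On V, 74 of the 507 series-wide gaps were 500 bp or less, as were 71 of 404 in replicate 1 and 32 of 237 in replicate 2. When peaks less than 1 kb apart were joined, the share on V with a neighbour within 10 kb was 43.7% for series-wide peaks, 35.8% for replicate 1 and 33.7% for replicate 2. On the other chromosomes the joined shares ran from 43.5% on X to 55.1% on III in the series-wide list. They ran from 30.3% on X to 40.1% on III in replicate 1, and from 22.1% on X to 34.7% on III in replicate 2, so V lay within their range in each list. Chained by gaps of at most 10 kb, the 508 peaks formed 304 runs, of which 194 were single peaks and 9 had 5 peaks or more.

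The longest run, with 12 series-wide peaks, was V:6171842-6183194 in the left part. Its peaks had scores from 1.48 to 17.2. Replicate 1 had 9 peaks in it and replicate 2 had 4, of which the widest was 3174 bp. V:8844800-8868065 held 9 series-wide peaks, among them the group of 3 described above, with 4 peaks in each replicate. Runs of 8 peaks followed at V:17115344-17132151, which is the wide region of the right part with 1 peak beside it, and at V:18712105-18743687. The last had scores of 2.03 to 16.9, with 7 peaks in replicate 1 and 3 in replicate 2.

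The longest stretch of V without a series-wide peak was 412.7 kb, from 311775 to 724487 near the left end, where replicate 1 had 1 peak and replicate 2 had 2. The next, 386.4 kb from 16709447 to 17095839, ended shortly before the wide region of the right part, and held 2 peaks of replicate 1 and 1 of replicate 2. The last of the 3 longest, 329.9 kb from 13459588 to 13789482, held none of replicate 1 and 1 of replicate 2. On the other chromosomes the longest series-wide gap was 277.3 kb, on IV. The replicate lists had the opposite order, with a longest gap of 463.3 kb on V against 599.2 kb on II in replicate 1, and of 521.1 kb on V against 801.3 kb on IV in replicate 2.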

How the data were processed

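Peaks were called with MACS for each ChIP library and with MACS v2 for the series-wide list, per the file headers and source fields. BWA aligned the reads to ce10, per the submitters' processing notes, which name no version. Coordinates are 1-based on WormBase WS220, per the file headers. The deposited score of each peak is the authors' own and was used unchanged, within a list. Peak borders were used as deposited.

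With Python 3.11.15, numpy 2.4.6, pandas 2.3.3 and scipy 1.17.1, peaks were assigned to windows and parts by midpoint, overlaps of 1 bp or more between lists were counted, and the partner of longest overlap gave the score set beside a peak. The last base covered by a peak in any list stood for the chromosome's length. Functions were tested on simulated peaks with known overlaps. Groups came from the sample titles. Alternatives were the replicate lists on their own, peaks that both of them held, the upper 50% by score, joining peaks under 1 kb apart, stricter overlaps and neighbour windows of 5 and 20 kb.

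Named regions were the 10 highest-scoring V peaks, the highest and widest of each part, all of 2 kb or more, the 3 longest runs (with ties) and gaps, and the fullest and emptiest windows. Members, lists and rules were chosen with earlier results of these data known. Sequences and gene positions of this build were not used here. Peaks of the mitochondrial genome were left out.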

Additional observations from a re-analysis of the deposited data

How the results depend on the processing

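In all, 11 results were recomputed under 60 alternatives. Of these, 39 moved them by less than the spread between replicates (or, for shares, their interval) and 21 moved them further. Where the libraries differed much, large moves still fell among the 39. For the median gap of 19.6 kb, values from 1.77 to 37.5 kb counted as unmoved. Leaving out 8 to 10 Mb took the right part over the centre from 0.822 to 1.032. That reversed the order, yet counted as unmoved (0.57 to 1.075). The count of 39 therefore does not show that the differences hold. Taking each replicate list alone, the density ratio of V to the other chromosomes was between 0.759 and 0.925, that of the left part to the centre between 0.694 and 1.00, and that of the right part to the centre between 0.735 and 1.09. The same lists gave a median width of 314 to 458 bp, a median gap of 23.8 to 49.0 kb, a share with a neighbour within 10 kb of 52.5% to 60.2% and a widest right-hand peak of 7890 to 11914 bp. Among peaks overlapped by both replicates the density ratio was 0.990, the median width 505 bp, the median gap 117.1 kb and the neighbour share 52.5%. The upper 50% by score had a median gap of 52.0 kb and a neighbour share of 42.9%. That share was 51.6% for 5 kb, 73.4% for 20 kb and 43.7% with peaks under 1 kb apart joined, which also made the widest right-hand peak 8837 bp. An overlap of 50% of both peaks left 15.2% of series-wide V peaks in both lists, and shares of 19.5% for replicate 1 and 33.2% for replicate 2. The causes of these shifts were not tested. No paired analysis was possible because no result came from a test, and the input libraries that share replicate numbers with the ChIP libraries had no list analysed here. Depth is unknown, so whether an uncalled site was missed for lack of reads cannot be told.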
